A study of Mus musculus with 6 samples.

Results

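Sterol and fatty acid synthesis was followed through 37 genes in BUMPT cells, an epithelial line from the mouse renal proximal tubule, in 3 libraries labelled tRF-Val and 3 labelled NC. The genes were taken by name: 20 enzymes of the sterol branch, 11 enzymes of the fatty acid branch and 6 genes of their shared control. All 37 were among the 11236 gene symbols with a listed mouse transcript, and all 37 averaged 1 or more over the 6 libraries, as did 10405 symbols in all. The tRF-Val group takes its name from tRF-Val-TAC-004, a piece of the transfer RNA for valine, and the series sought genes downstream of it in apoptosis. Whether the tRF-Val cells received the fragment or an inhibitor of it is not given in the labels, nor is the meaning of NC, and no dose or time is given. Separate cultures are not mentioned in the labels, and p-values therefore measure how these libraries vary, which may be technical.

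Each value below is an abundance per transcript, treated as scaled to the library and added over the transcripts of a gene. The mouse values summed to 421201, 444539 and 435472 in tRF-Val libraries, against 387611, 388274 and 389669 in NC libraries. They were not rescaled in the main fit. The unit is not stated (FPKM, TPM or another), nor is any scaling to transcript length, so levels are compared between libraries and not between genes. The number of reads behind a value is not known. NC 3 stood apart from the other libraries. Its correlation of log2(value + 1) over genes was 0.903 with NC 1 and 0.915 with NC 2, against 0.974 between NC 1 and NC 2, and mitochondrial transcripts held 17.5% of its values, against 3.16% to 6.58% in the other libraries. Results are therefore given with and without NC 3. In bulk libraries fewer cells of a type and less RNA per cell cannot be told apart. Of 16 proximal tubule markers 1 was listed, the water channel Aqp1, and Lrp2 and Cubn, the endocytic receptors that define the segment, were not listed. Of 12 markers of renal and general epithelium 11 were listed, with a summed level of 951 to 1134 in tRF-Val libraries and 602 to 849 in NC libraries. Of 9 leukocyte markers 5 were listed, without the defining Ptprc, and their sum was 34.9 to 42.2 in tRF-Val libraries and 8.57 to 24.8 in NC libraries. The listed endothelial marker, Cdh5, was at 2.72 to 5.02 in tRF-Val libraries and 6.25 to 8.03 in NC libraries. The distal tubule marker Aqp3, 1 of 9, was at 1.89 to 3.40 in tRF-Val libraries and 0.959 to 1.45 in NC libraries, and 2 of 10 fibroblast and synovium markers summed to 1.01 to 1.76 in tRF-Val libraries and 0.850 to 1.26 in NC libraries. None of 8 adipocyte and hepatocyte markers was listed. The part of these shifts in the results below was not tested.

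Cells make cholesterol and fatty acids from the same precursor, acetyl-CoA. The mevalonate pathway joins acetyl-CoA units into isoprenoids, squalene synthase commits them to sterols, and a chain of membrane enzymes turns lanosterol into cholesterol. Fatty acid synthesis starts with malonyl-CoA and goes on through synthase, elongases and desaturases. Both branches are switched on by the SREBP transcription factors, which Scap carries out of the endoplasmic reticulum when sterols are low and which the Insig proteins hold back when sterols are plentiful. In mice and humans SREBP2 acts mainly on sterol genes and SREBP1c on fatty acid genes, usually together with the CCAAT-binding factor NF-Y.

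Promoter windows in RefSeq sequence of GRCm38.p6 ran from 250 bases before to 50 bases after a transcript start. They were available for 30 of the 37 members, in 39 windows. A gene was counted as holding a motif if any of its windows held it. The 8 windows shown are those of 3 sterol enzymes and a regulator, picked with their motifs known from the 8 genes with a window whose tRF-Val values all lay above the NC values, and of all 4 genes with the opposite order, Lbr, Fads2, Acaca and Elovl5. Capitals mark the NF-Y box CCAAT, the E-box CACGTG and the core of the sterol regulatory element CACNCCA, each read on both strands, so that ATTGG and TGGNGTG are also marked; no marked run overlaps another in these windows.
Hmgcs1 promoter, chr13:119690101-119690400 (plus strand): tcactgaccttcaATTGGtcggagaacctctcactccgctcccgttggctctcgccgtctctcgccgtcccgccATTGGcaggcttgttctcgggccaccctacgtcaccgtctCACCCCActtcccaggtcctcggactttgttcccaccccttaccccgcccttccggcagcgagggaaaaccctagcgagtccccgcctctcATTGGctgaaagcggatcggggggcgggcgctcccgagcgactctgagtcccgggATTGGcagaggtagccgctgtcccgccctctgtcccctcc
Mvk promoter, chr5:114444019-114444318 (plus strand): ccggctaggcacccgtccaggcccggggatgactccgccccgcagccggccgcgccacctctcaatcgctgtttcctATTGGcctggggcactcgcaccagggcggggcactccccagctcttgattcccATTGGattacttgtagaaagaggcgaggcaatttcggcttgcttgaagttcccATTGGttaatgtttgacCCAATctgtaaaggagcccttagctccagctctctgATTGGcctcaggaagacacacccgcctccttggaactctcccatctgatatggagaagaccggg
Ebp promoter, chrX:8193463-8193762 (minus strand): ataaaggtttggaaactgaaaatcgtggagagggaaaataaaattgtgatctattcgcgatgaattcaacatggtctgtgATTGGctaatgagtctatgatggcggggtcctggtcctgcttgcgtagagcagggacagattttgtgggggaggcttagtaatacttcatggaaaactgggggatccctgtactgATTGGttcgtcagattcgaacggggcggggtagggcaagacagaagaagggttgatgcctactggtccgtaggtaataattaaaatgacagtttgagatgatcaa
Insig1 promoter, chr5:28071162-28071461 (plus strand): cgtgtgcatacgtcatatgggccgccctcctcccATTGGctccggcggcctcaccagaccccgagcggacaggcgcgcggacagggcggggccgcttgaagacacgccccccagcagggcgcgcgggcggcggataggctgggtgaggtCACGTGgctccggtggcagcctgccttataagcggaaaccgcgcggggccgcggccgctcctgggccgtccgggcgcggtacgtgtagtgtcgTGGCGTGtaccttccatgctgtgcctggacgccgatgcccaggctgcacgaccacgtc
Lbr promoter, chr1:181842352-181842651 (minus strand): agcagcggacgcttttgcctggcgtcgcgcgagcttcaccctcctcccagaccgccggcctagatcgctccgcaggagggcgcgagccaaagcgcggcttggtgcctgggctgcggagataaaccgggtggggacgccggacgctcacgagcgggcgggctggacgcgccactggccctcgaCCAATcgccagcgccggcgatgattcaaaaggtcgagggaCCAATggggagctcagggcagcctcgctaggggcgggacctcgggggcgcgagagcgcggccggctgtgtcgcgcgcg
Elovl5 promoter, chr9:77917115-77917414 (plus strand): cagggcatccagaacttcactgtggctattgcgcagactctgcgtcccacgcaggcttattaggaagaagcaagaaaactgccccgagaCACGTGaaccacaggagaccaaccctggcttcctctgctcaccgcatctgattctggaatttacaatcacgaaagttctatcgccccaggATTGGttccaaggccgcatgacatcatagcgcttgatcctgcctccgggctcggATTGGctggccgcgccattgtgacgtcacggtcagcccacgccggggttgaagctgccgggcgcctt
Fads2 promoter, chr19:10101454-10101753 (minus strand): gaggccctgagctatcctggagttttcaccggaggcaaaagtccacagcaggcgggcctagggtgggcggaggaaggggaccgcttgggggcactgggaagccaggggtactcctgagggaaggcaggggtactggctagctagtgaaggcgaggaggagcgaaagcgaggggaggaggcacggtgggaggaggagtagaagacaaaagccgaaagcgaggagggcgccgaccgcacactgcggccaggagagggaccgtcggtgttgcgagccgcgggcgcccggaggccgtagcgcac
Acaca promoter, chr11:84195188-84195487 (plus strand): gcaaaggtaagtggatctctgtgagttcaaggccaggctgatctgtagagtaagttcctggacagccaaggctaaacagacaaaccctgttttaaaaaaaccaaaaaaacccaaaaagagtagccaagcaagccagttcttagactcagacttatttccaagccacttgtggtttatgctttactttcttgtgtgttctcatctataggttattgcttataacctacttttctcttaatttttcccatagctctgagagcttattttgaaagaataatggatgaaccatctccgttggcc
The Hmgcs1 window held 4 NF-Y boxes and 1 element core, the Mvk window 5 NF-Y boxes, the Ebp window 2 NF-Y boxes, and the Insig1 window 1 motif of each kind. The Lbr window held 2 NF-Y boxes and the Elovl5 window 2 NF-Y boxes and 1 E-box. Neither the Fads2 nor the Acaca window held any of the 3 motifs. The Acaca window is the one at the start of the transcript Acaca-201, described below. The start of its other listed transcript, Acaca-202, had no window, so Acaca is counted by the Acaca-201 window alone. CCAAT was in 7 of the 8 genes with tRF-Val above NC, in 2 of the 4 below, and in 16 of the 18 with overlapping groups. Over the sterol branch, 16 of 17 genes with a window held CCAAT (94.1%), over the fatty acid branch 5 of 8 (62.5%) and over the regulators 4 of 5 (80.0%), against 43.7% of the 8228 tested genes with a window and 41.1% of all 27025 genes with one. CACNCCA was in 17.6% of the sterol genes, 12.5% of the fatty acid genes and 3 of 5 regulators, against 19.9% of tested genes and 20.6% of all. CACGTG was in 17.6%, 12.5% and 2 of 5, against 12.1% of tested genes and 8.09% of all. Counted by window, CCAAT was in 16 of 20 sterol, 5 of 9 fatty acid and 5 of 10 regulator windows. Over tested genes it was in 38.3% of windows. In the regulators CACNCCA was in 4 of 10 windows and CACGTG in 3, against 17.3% and 10.1% over tested genes. A match is a run of letters and was not tested as a site.

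The question for the group comparison was which of these genes differed between tRF-Val and NC. Of the sterol branch 1 of 20 genes passed limma's test at an adjusted p under 0.05 over all genes, Fdft1, and it was higher in tRF-Val libraries. Over all 10405 genes tested, 0.0577% passed as higher and 0.202% as lower. No regulator and no fatty acid gene passed. At an unadjusted p under 0.05 there were 8 sterol genes higher and 1 lower, 1 regulator higher, and 2 fatty acid genes lower and 0 higher, against 12.2% higher and 15.6% lower over all genes. The sterol branch had a median log2 fold change, tRF-Val minus NC, of 0.54 with 15 of 20 genes above 0, the regulators 0.32 with 5 of 6, the fatty acid branch -0.02 with 5 of 11, and all genes tested 0.01. Of the regulators above 0 here, Srebf2, Srebf1 and Scap lay below 0 without NC 3. In 10 sterol genes every tRF-Val value lay above every NC value (Acat2, Hmgcs1, Mvk, Pmvk, Mvd, Fdps, Fdft1, Sqle, Cyp51 and Ebp), and in 1, Lbr, below; over all genes 20.3% lay above and 22.1% below. Of the regulators 1 lay above, Insig1, and of the 11 fatty acid genes none lay above and 3 below, Acaca, Elovl5 and Fads2. With 3 libraries against 3, the smallest p that exact permutation allows is 0.1, and it is not given for single genes.

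**Figure D1:**
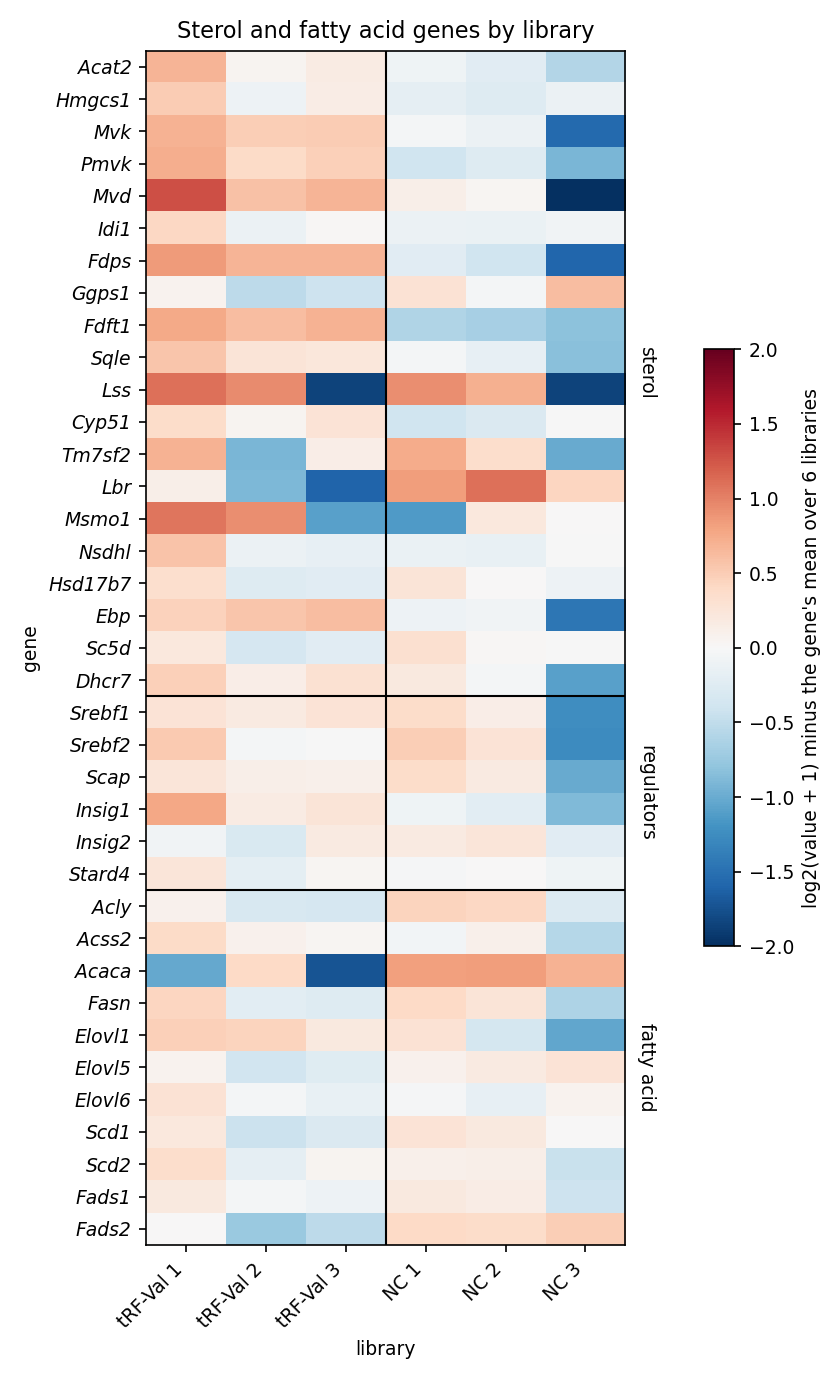
Abundance of the 37 genes (rows, by branch) in each library (columns, tRF-Val left of NC), as log2(value + 1) minus the gene's mean over the 6 libraries; red is above that mean and blue below. In 10 of 20 sterol genes, and in none of 11 fatty acid genes, every tRF-Val cell is redder than every NC cell; NC 3 is the bluest NC cell in 28 of 37 rows.

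The enzymes that make mevalonate and turn it into isoprenoid units had 6 of 6 fold changes above 0. Their median was 0.83 on the log2 scale. In 5 of the 6 the groups did not overlap, with tRF-Val above, against 20.3% of all genes tested. Without NC 3, the fold changes of Acat2, Hmgcs1, Mvk, Pmvk, Mvd and Idi1 were 0.46, 0.40, 0.65, 0.86, 0.77 and 0.22. With the length and GC correction described below they were 0.54, 0.71, 0.55, 0.42, 1.19 and 0.53. Acat2, which joins acetyl-CoA units in the cytosol, had 36.5, 23.4 and 25.3 in tRF-Val 1 to 3, against 20.97, 19.1 and 14.5 in NC 1 to 3. Hmgcs1, the HMG-CoA synthase, had 85.3, 55.5 and 65.9 in tRF-Val libraries, against 52.4, 49.7 and 55.0 in NC libraries. In Hmgcs1 the lowest tRF-Val value lay just above the highest NC value, and the log2 fold change of 0.37 (SE 0.19) had an adjusted p of 0.239.

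Mevalonate kinase, Mvk, had 15.0, 12.9 and 13.1 in tRF-Val libraries, against 8.62, 8.06 and 2.35 in NC libraries. Phosphomevalonate kinase, Pmvk, which adds the next phosphate, had 34.2, 26.7 and 28.5 in tRF-Val libraries, against 15.1, 16.7 and 10.3 in NC libraries. In both kinases the groups did not overlap and NC 3 was the lowest library. Their log2 fold changes were 1.14 (SE 0.42, adjusted p = 0.151) for Mvk and 1.05 (SE 0.22, adjusted p = 0.0859) for Pmvk. Without NC 3 they were 0.65 and 0.86, with adjusted p-values of 0.0491 and 0.0439, under the threshold. With the trend on transcript length and GC content removed from each library, as described below, they were 0.55 and 0.42 (adjusted p = 0.132 and 0.213), and with NC 3 left out as well 0.43 and 0.51 (adjusted p = 0.130 and 0.161).

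Mvd, which decarboxylates diphosphomevalonate to isopentenyl diphosphate, had 15.0, 8.80 and 9.52 in tRF-Val libraries, against 6.13 and 5.74 in NC 1 and NC 2, and was listed at 0 in NC 3. Its fitted log2 fold change of 1.70 came to 0.77 without NC 3 (adjusted p = 0.0959). Idi1, the isomerase that follows, was the member of this step with the smallest difference, at 41.8, 28.4 and 31.5 in tRF-Val libraries, against 28.7, 28.2 and 29.6 in NC libraries. Its NC values lay within the range of its tRF-Val values apart from NC 2, which was just under tRF-Val 2, and the log2 fold change was 0.21 (SE 0.18, adjusted p = 0.459).

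Farnesyl diphosphate synthase, Fdps, builds the precursor of squalene and of protein prenylation. It had 145, 128 and 129 in tRF-Val libraries, against 68.6, 60.6 and 25.9 in NC libraries, a ratio of means of 2.59. All tRF-Val values were close together and well above NC 1 and NC 2, and NC 3 was lower again. The log2 fold change was 1.47 (SE 0.37, adjusted p = 0.0931), and without NC 3 it was 1.04 (adjusted p = 0.0277), and 0.78 with the length and GC correction besides (adjusted p = 0.0647). Ggps1, which makes geranylgeranyl diphosphate for prenylation and not for sterols, had 7.42, 4.58 and 5.05 in tRF-Val libraries, against 8.80, 6.84 and 11.3 in NC libraries. Its groups overlapped and its log2 fold change was -0.58 (SE 0.25, adjusted p = 0.192), of the other sign than that of Fdps; the difference between these 2 genes was not tested.

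Fdft1, the squalene synthase, carries out the first step that leads to sterols alone, and it rose in tRF-Val libraries. It had 53.3, 48.7 and 51.5 in tRF-Val libraries, against 20.4, 19.4 and 17.3 in NC libraries. The groups were far apart and each was tight, with NC 3 close to NC 1 and NC 2. The means were 51.2 ± 2.36 in tRF-Val and 19.0 ± 1.58 in NC (SD, n = 3 each), a ratio of 2.69, and the log2 fold change was 1.38 (SE 0.14, adjusted p = 0.0357). The gene lies on chromosome 14 at 63145150 to 63179578 on the minus strand (GRCm38, GENCODE M21). It passed in 7 of 16 alternative settings. Without NC 3 the adjusted p was 0.0200; without NC 1, NC 2, tRF-Val 1, tRF-Val 2 or tRF-Val 3 it was 0.116, 0.171, 0.0567, 0.164 and 0.159, with log2 fold changes of 1.32 to 1.43 over these 6 settings.

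**Figure D2:**
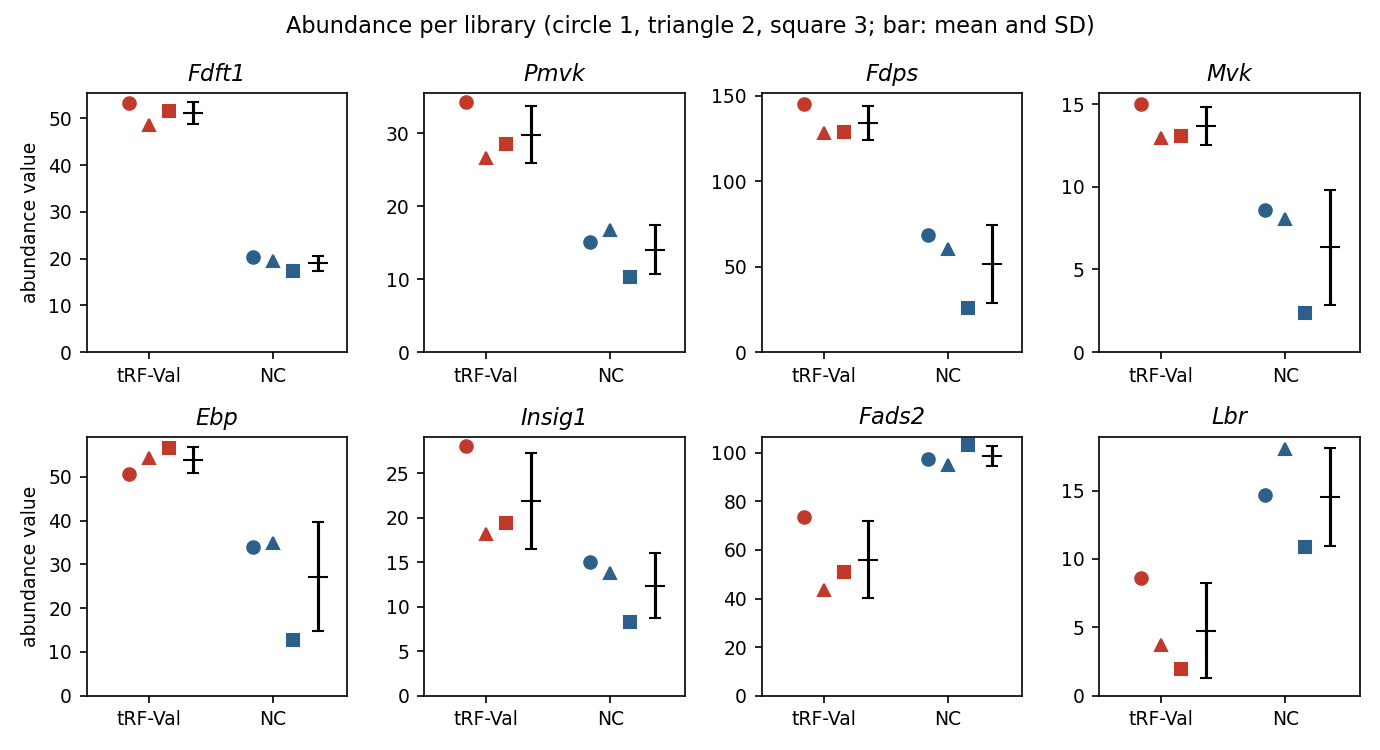
Abundance of 8 members in each library (vertical axis, one panel a gene, axes from 0), tRF-Val in red left of NC in blue, with the mean and SD of 3 libraries as a black bar. No panel has overlapping groups: Fdft1 sits at 48.7 to 53.3 in tRF-Val and 17.3 to 20.4 in NC. NC 3 (square) is the lowest NC point in every panel but that of Fads2, where it is the highest.

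After squalene synthase come Sqle, the squalene epoxidase, and Lss, which closes the ring to lanosterol. Sqle had 89.1, 72.0 and 70.7 in tRF-Val libraries, against 59.0, 54.0 and 33.3 in NC libraries. The groups did not overlap, and the log2 fold change was 0.69 (SE 0.25, adjusted p = 0.145), or 0.44 without NC 3. Lss had 6.73 and 5.95 in tRF-Val 1 and 2 and 5.85 and 4.87 in NC 1 and 2, and was listed at 0 in tRF-Val 3 and NC 3. With a library at 0 in each group, its log2 fold change of 0.14 (SE 1.06) is not read by itself. It is still counted in the branch's totals and median.

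Of the 9 enzymes between lanosterol and cholesterol 5 had fold changes above 0, with a median of 0.20 on the log2 scale. Cyp51, which removes the 14-alpha methyl group from lanosterol, had 56.0, 44.8 and 52.6 in tRF-Val libraries, against 32.6, 35.0 and 42.7 in NC libraries. Here NC 3 was the highest NC library, just under tRF-Val 2, and the log2 fold change was 0.47 (SE 0.17, adjusted p = 0.142). Ebp, the sterol isomerase, had 50.5, 54.4 and 56.6 in tRF-Val libraries, against 34.0, 34.8 and 12.7 in NC libraries. Its log2 fold change was 1.08 (SE 0.38, adjusted p = 0.142), and 0.63 without NC 3 (adjusted p = 0.0387), or 0.53 with the length and GC correction besides (adjusted p = 0.0648).

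Lbr, a protein of the inner nuclear membrane that binds lamin B and also reduces the C14 double bond of sterols, had its groups in the opposite order. It had 8.62, 3.74 and 1.92 in tRF-Val libraries, against 14.7, 18.0 and 10.9 in NC libraries, and every tRF-Val value lay below every NC value. Its log2 fold change was -1.58 (SE 0.45, adjusted p = 0.109), and -1.76 without NC 3 (adjusted p = 0.0896). Tm7sf2, the other C14 reductase, was at 2.65, 0.20 and 1.47 in tRF-Val libraries, against 2.77, 1.89 and 0.12 in NC libraries, with no order between the groups. Msmo1, the C4 methyl oxidase, spread more within the groups than between them, at 69.1, 62.8 and 14.8 in tRF-Val libraries, against 14.3, 37.5 and 32.5 in NC libraries. Nsdhl, Hsd17b7, Sc5d and Dhcr7, which finish the removal of the C4 methyl groups and set the double bonds of the B ring, had overlapping groups and log2 fold changes of 0.20, -0.11, -0.23 and 0.61, with adjusted p-values of 0.293 to 0.770.

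Among the regulators, Insig1, itself an SREBP target as well as the protein that retains Scap, had 28.1, 18.2 and 19.4 in tRF-Val libraries, against 15.0, 13.8 and 8.24 in NC libraries. Its groups did not overlap, and the log2 fold change was 0.79 (SE 0.28, adjusted p = 0.140), or 0.55 without NC 3. Srebf2, the gene of SREBP2, had 38.4, 25.9 and 26.4 in tRF-Val libraries, against 37.7, 32.3 and 10.5 in NC libraries. Srebf1 had 12.5, 11.6 and 12.4 in tRF-Val libraries, against 13.3, 11.2 and 3.68 in NC libraries, and Scap, the escort of the SREBPs, had 12.9, 11.6 and 11.6 in tRF-Val libraries, against 14.04, 12.2 and 4.79 in NC libraries. In these 3 genes tRF-Val lay around or under NC 1 and NC 2, and NC 3 was far below. The log2 fold changes of Srebf2, Srebf1 and Scap were 0.32, 0.49 and 0.31 with all libraries and turned to -0.22, -0.01 and -0.11 without NC 3. Insig2, the second retention protein, and Stard4, which carries cholesterol through the cytosol, had log2 fold changes of -0.12 and 0.06 with overlapping groups. The length and GC correction described below moved Stard4 to 0.53 (adjusted p = 0.103) with no overlap, and Insig2 to -0.07 with overlap.

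**Figure D3:**
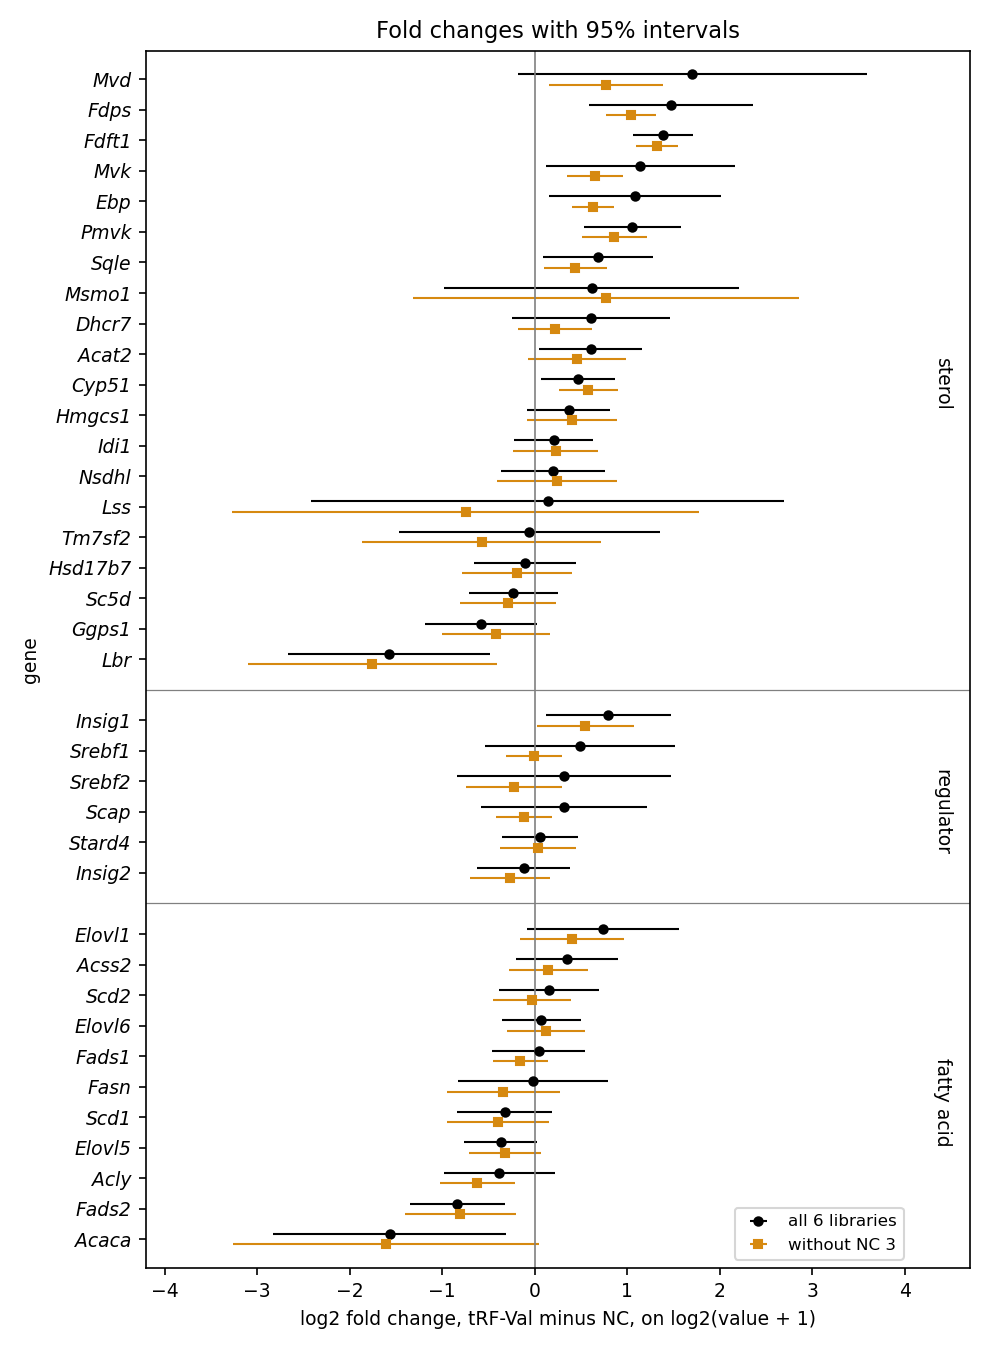
Log2 fold change of each member, tRF-Val minus NC on log2(value + 1), with its 95% interval from limma, for all 6 libraries (black) and without NC 3 (orange); genes run down the page by branch and fold change. Of 20 sterol points 15 lie right of 0, and 14 without NC 3, while of 11 fatty acid points 5 lie right of 0, and 3 without NC 3.

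In the fatty acid branch the genes that supply acetyl-CoA and malonyl-CoA had no common direction. Acly, which splits citrate into acetyl-CoA, had 36.6, 27.3 and 27.1 in tRF-Val libraries, against 47.0, 46.3 and 28.2 in NC libraries. The groups overlapped through NC 3, and the log2 fold change of -0.38 (adjusted p = 0.336) was -0.62 without NC 3 (adjusted p = 0.0688). Acss2, which makes acetyl-CoA from acetate, was at 1.60 to 2.29 in tRF-Val libraries and 0.70 to 1.71 in NC libraries. Fasn, the fatty acid synthase, had 24.1, 15.0 and 14.6 in tRF-Val libraries, against 23.4, 21.3 and 11.1 in NC libraries, with overlapping groups and a log2 fold change of -0.02 (SE 0.33, 95% interval -0.83 to 0.79).

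Acaca, the acetyl-CoA carboxylase that makes malonyl-CoA, had 1.59, 5.90 and 0.59 in tRF-Val libraries, against 8.29, 8.35 and 7.51 in NC libraries. All 3 tRF-Val values lay below the NC values, and they differed from each other by more than the NC values did. The log2 fold change was -1.57 (SE 0.52, adjusted p = 0.130), and with the length and GC correction it was -1.13 and the groups overlapped. Its 2 listed transcripts did not share the values evenly between the groups. Acaca-201 was listed at 0 in every tRF-Val library, against 7.98, 8.35 and 7.47 in NC 1 to 3. Acaca-202 was at 1.59, 5.90 and 0.59 in tRF-Val libraries, against 0.31, 0.00 and 0.04 in NC libraries. Acaca-201 passed limma's test over 16320 transcripts (adjusted p = 0.00494), where 0.839% of transcripts passed as lower and 0.3% as higher. Its adjusted p was 0.00870 to 0.0501 with each library left out, and it was over the threshold without tRF-Val 3. Acaca-202 did not pass (adjusted p = 0.263).

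Acaca-201 runs on the plus strand of chromosome 11 from 84195438 to 84401645 in 54 exons and 9026 bases, and Acaca-202 from 84173122 to 84401651 in 56 exons and 9513 bases. All 9026 bases of Acaca-201 lie in Acaca-202, which has 487 bases more, starts 22316 bases upstream and holds the same 7035 coding bases. The bases of Acaca-201 therefore do not by themselves tell the pair apart. A transcript listed at 0 can be an estimate that failed, and whether Acaca-201 was one was not tested. Of 8606 transcripts that averaged 5 or more in NC, 121 (1.41%) stood at 0 in all tRF-Val libraries. Of 8290 that averaged 5 or more in tRF-Val, 19 (0.229%) stood at 0 in all NC libraries. These counts do not tell failed estimates from transcripts that were absent. Acaca was the 1 gene of 22 members with several transcripts whose shares moved by more than 50 percentage points between group means, against 454 of 5426 genes with several transcripts (8.37%). Between libraries of the same group such moves were seen in 10.7% to 19.0% of genes, so the split of a gene between its transcripts was unsteady in this table.

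**Figure D4:**
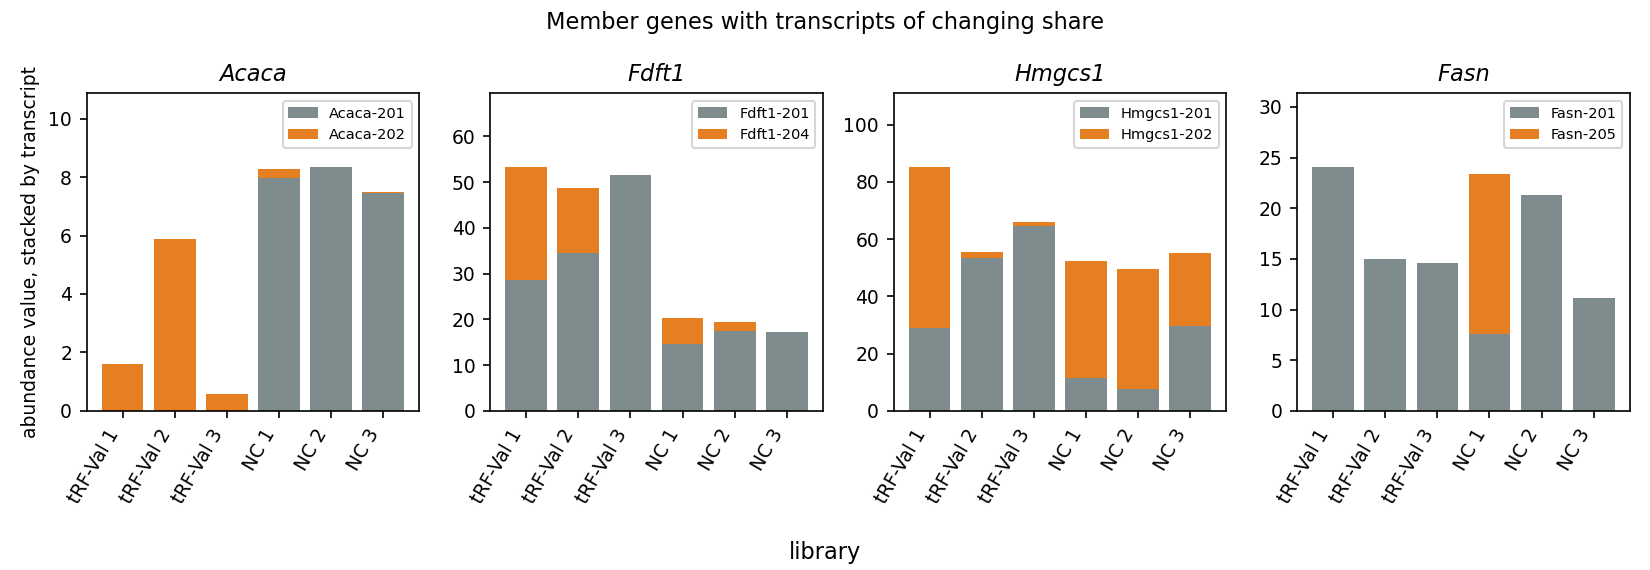
Abundance in each library (bars, tRF-Val left of NC, from 0), stacked by listed transcript, for Acaca, Fdft1, Hmgcs1 and Fasn. Acaca is all Acaca-202 in the tRF-Val libraries and nearly all Acaca-201 in the NC libraries, while in the other 3 genes the split also changes between libraries of the same group.

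Unlike in Acaca, the split changed between libraries of the same group in Fdft1, Hmgcs1 and Fasn, named here after their values were seen. Fdft1-204 was at 24.7, 14.3 and 0.00 in tRF-Val libraries, against 5.68, 2.01 and 0.00 in NC libraries, while the gene sum of Fdft1 stayed even. Fdft1-201, the larger part of the gene, was at 28.6, 34.4 and 51.5 in tRF-Val libraries, against 14.7, 17.4 and 17.3 in NC libraries. Its log2 fold change was 1.13, and it did not pass over all transcripts either (adjusted p = 0.118). Hmgcs1-202 was at 56.2, 2.24 and 1.13 in tRF-Val libraries, against 40.7, 42.0 and 25.2 in NC libraries. Fasn-205 was listed at 15.9 in NC 1 and at 0 in the other libraries. Fdft1-204, Hmgcs1-202 and Fasn-205 did not pass over all transcripts, with adjusted p-values of 0.585, 0.361 and 0.542. With each library left out, Fdft1-204 and Fasn-205 did not pass, and Hmgcs1-202 passed in 1 of 6 fits, without tRF-Val 1 (adjusted p = 0.0266).

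Of the elongases, Elovl1, which acts on very long chains, had 35.0, 34.4 and 28.5 in tRF-Val libraries, against 30.6, 19.3 and 11.6 in NC libraries. The groups overlapped by NC 1 alone and the log2 fold change was 0.74 (SE 0.34, adjusted p = 0.210). Elovl5, which extends polyunsaturated chains, had 42.3, 30.7 and 34.1 in tRF-Val libraries, against 43.1, 46.0 and 49.0 in NC libraries, in no overlap and with tRF-Val below, at -0.37 (SE 0.16, adjusted p = 0.201). With the length and GC correction it was -0.15, and -0.14 without NC 3 as well, and in both the groups overlapped. Elovl6, which takes palmitate to stearate, had a log2 fold change of 0.07 (SE 0.18). The length and GC correction moved it to 0.57 (adjusted p = 0.0873), with no overlap between the groups and tRF-Val above.

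Of the desaturases, Fads2, the delta-6 desaturase of polyunsaturated chains, had 73.7, 43.6 and 50.9 in tRF-Val libraries, against 97.6, 95.0 and 103 in NC libraries. NC 3 was the highest library here, and the groups did not overlap. The log2 fold change was -0.84 (SE 0.21, adjusted p = 0.0940). That was the smallest adjusted p of the fatty acid branch in the fit of all libraries without the correction. Without NC 3 it was -0.80 (adjusted p = 0.0841). Fads1, the delta-5 desaturase of the same pathway, lies 81141 bases from Fads2 on chromosome 19, on the opposite strand. It had 110, 93.0 and 89.2 in tRF-Val libraries, against 110, 106 and 71.7 in NC libraries, a log2 fold change of 0.04 (SE 0.21). The difference between Fads2 and Fads1 was not tested. Scd2, a stearoyl-CoA desaturase, had 209, 145 and 172 in tRF-Val libraries, against 177, 178 and 120 in NC libraries, and Scd1, its neighbour 87590 bases away, had 14.9, 9.22 and 10.3 in tRF-Val libraries, against 15.6, 14.7 and 12.8 in NC libraries. Neither separated the groups, with log2 fold changes of 0.15 and -0.32. With the length and GC correction Scd2 was at 0.52 (adjusted p = 0.139) and its groups did not overlap, as also without NC 3 (0.38, adjusted p = 0.122), and Scd1 turned to 0.09.

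Set side by side, the branches differed in where their libraries lay. Summed over its 20 genes, the sterol branch held 777, 620.3 and 598 in tRF-Val libraries, against 444, 444 and 338 in NC libraries, or 0.138% to 0.185% of all mouse values in tRF-Val and 0.0869% to 0.115% in NC. The fatty acid branch held 562, 416 and 437 in tRF-Val libraries, against 564, 545 and 426 in NC libraries. As shares of all mouse values these were 0.0936% to 0.134% in tRF-Val and 0.110% to 0.146% in NC. The sterol sums did not overlap and the fatty acid sums did. The median of the centred log2 values was 0.57, 0.10 and 0.15 in tRF-Val 1 to 3, against -0.06, -0.10 and -0.71 in NC 1 to 3, over the sterol branch, and 0.22, -0.18 and -0.24 in tRF-Val libraries, against 0.28, 0.18 and -0.28 in NC libraries, over the fatty acid branch. The difference between the branches was not tested, since the genes were chosen with results of these libraries known.

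A library in each group stood at one end of the members more often than of other genes. tRF-Val 1 was the highest tRF-Val library in 34 of 37 members (91.9%), against 48.7% of all genes tested, and NC 3 was the lowest NC library in 28 (75.7%), against 57.6%. Without tRF-Val 1 the sterol median was 0.32 and that of the fatty acid branch -0.25, with 0 sterol genes passing as higher and 5 fatty acid genes below with no overlap. The shares over all genes in that fit are not given here. No overlap comes more easily with fewer libraries in a group, so the count of 5 is not read as a result about the branch. Without NC 3 the sterol median was 0.42 and that of the fatty acid branch -0.32, against -0.08 over all genes. Among the regulators, Srebf2, Srebf1, Scap and Insig2 were then at -0.22, -0.01, -0.11 and -0.27, and Insig1 and Stard4 at 0.55 and 0.03. Then 5 sterol genes passed as higher (Fdft1, Fdps, Pmvk, Mvk and Ebp), in a fit in which 2.75% of all genes passed as higher and 3.04% as lower.

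Fold changes also ran with transcript length. Fold change and length had a Spearman's rho of -0.56 over 10405 genes and -0.59 over the 37 members, a description across genes, which are not independent. Median length was 2705 bases in the sterol branch, 4121 in the fatty acid branch and 2795 over all genes. Genes between the length quartiles of the sterol branch had a median fold change of 0.07 and those between the quartiles of the fatty acid branch -0.23, against 0.54 and -0.02 for the branches themselves. The value of NC 3 minus the mean of NC 1 and NC 2 ran against GC content, with rho of -0.65 over all genes and -0.79 over the members. After each library's trend with length and GC content was removed, the sterol median was 0.54, that of the regulators 0.40 and that of the fatty acid branch 0.13, against 0.03 over all genes; Fdft1 (1.48, adjusted p = 0.00824) was again the only member to pass, in a fit in which 0.202% of all genes passed as higher and 0.336% as lower. With NC 3 left out as well, Fdft1 and Cyp51 passed, with log2 fold changes of 1.50 and 0.92 (adjusted p = 0.0132 and 0.0288), against 0.586% of all genes that passed as higher and 0.519% as lower. The correction also changed which groups overlapped. With it 12 sterol genes, 4 regulators and 3 fatty acid genes lay above NC with no overlap, and 1 sterol gene and 1 fatty acid gene below, against 19.7% above and 15.3% below over all genes. Hmgcs1 was then at 0.71, Cyp51 at 0.83 and Elovl1 at 0.25.

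**Figure D5:**
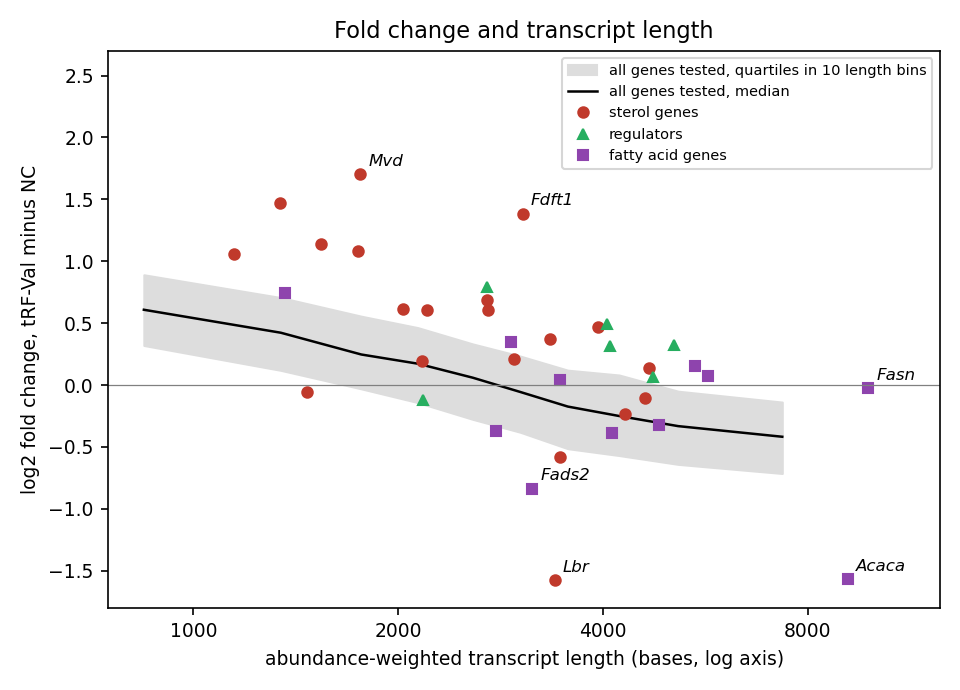
Log2 fold change, tRF-Val minus NC, against abundance-weighted transcript length in bases (log axis) for sterol genes (circles), regulators (triangles) and fatty acid genes (squares), over the median and quartiles of all genes tested in 10 length bins. The median of all genes falls with length; Fdft1 lies above the quartile band and Lbr and Fads2 below it.

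Other genes of the same pathways were read from 6 lists. Of 118 genes 99 were listed and 94 tested, and none passed under limma at an adjusted p under 0.05, with 7 higher and 12 lower at an unadjusted p under 0.05, against 12.2% and 15.6% over all genes. Their median log2 fold change was 0.18, with 60 of 94 above 0, and 21 genes lay above and 16 below with no overlap, against 20.3% and 22.1% over all genes. All 8 other sterol genes tested had fold changes above 0, with a median of 0.24 and none at an unadjusted p under 0.05. Sterol uptake, transport and storage (12 genes) had a median of -0.04, other genes of SREBP control (15) -0.17, isoprenoid use (13) 0.19, other fatty acid synthesis and activation (23) 0.35, and glycerolipid and phospholipid synthesis (25) 0.24.

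The 6 genes of these lists with the smallest p did not reach the threshold. Gpam, which starts glycerolipid synthesis by acylating glycerol-3-phosphate, was at 1.03, 0.59 and 0.66 in tRF-Val libraries, against 2.76, 2.74 and 3.67 in NC libraries, with a log2 fold change of -1.20 (SE 0.18, adjusted p = 0.0568). Gramd1a, which carries cholesterol from the plasma membrane to the endoplasmic reticulum, was at 6.17, 8.07 and 8.11 in tRF-Val libraries, against 3.54, 2.82 and 2.08 in NC libraries, at 1.16 (SE 0.21, adjusted p = 0.0733). In both genes the groups were clear of each other. Hacd1, a dehydratase of very long chain synthesis, and Agpat4, an acyltransferase, had log2 fold changes of 1.09 and 0.83. Acsl3, which activates fatty acids, and Zmpste24, a protease that trims prenylated proteins, had -0.94 and -0.52. All 4 had no overlap between groups and adjusted p-values of 0.0861 to 0.102. Without NC 3, where 2.75% of all genes passed as higher and 3.04% as lower, 7 of the 94 passed: Gpam, Gramd1a, Hacd1 and Agpat4, and, named after their values were seen, Acot7 (higher), Lpin2 and Nceh1 (both lower), with adjusted p-values of 0.0358 to 0.0487. With the length and GC correction and all libraries none of the 94 passed. Gpam was then at -1.03, Gramd1a at 0.82 and Lpin2 at -0.91. Hacd1 was at 0.53, Agpat4 at 0.53, Acot7 at 0.21 and Nceh1, of the other sign, at 0.024.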

How the data were processed

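RNA of 3 tRF-Val and 3 NC libraries was sequenced after Trizol extraction with a KAPA kit that marks strand with dUTP, per the labels' protocols, whose text describes joint tissue while the sample labels name the kidney line. The submitters' processing notes name cutadapt, HISAT2 2.1.0, StringTie and the build GRCh38, although most rows carry mouse IDs. The authors deposited a signal for each transcript in each library, an abundance whose unit (FPKM, TPM or other) is not given in the sources used here; values are not counts and depth is unknown, so no interval for counting error can be given. Of 30813 rows, 21603 have mouse IDs, of which 21558 matched GENCODE M21 (GRCm38) without version and 45 did not; 9210 rows with human IDs were not used. Every mouse row has a group mean of at least 0.5, so lower transcripts are missing from gene sums.

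Values were added per gene symbol, genes with a mean of at least 1 were kept, and limma 3.58.1 (R 4.3.3) was run on log2(value + 1) (trend and robust moderation, two-sided, Benjamini-Hochberg over all genes, threshold 0.05). A fold change on this scale understates that of low genes. Transcripts were fitted in the same way. The length and GC correction subtracts a loess trend (span 0.3) on each from every library. Members and lists were chosen with earlier results of these data known, so the branches got counts and medians and no test of their own. Named were members that passed or whose groups did not overlap, the others with the highest and lowest value in each role, the 6 other pathway genes with the smallest p, Acaca's transcripts and transcripts that passed or moved in share by over 50 percentage points; remaining members were added after their values were seen. The fit was tested on simulated data. Alternatives were a pseudocount of 0.1, no filter, a mean of at least 5, median scaling, rescaling without mitochondrial transcripts, the replicate block, the length and GC correction, plain moderation and each library left out; leaving out NC 3 with the correction was chosen after seeing the data.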

Additional observations from a re-analysis of the deposited data

How the results depend on the processing

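None of the 15 members whose groups did not overlap changed sign in any of 16 alternatives. In such members a new pseudocount, filter or moderation, the block alone, or a library left out cannot turn the sign. Only the scaling and correction settings could. Of all 37 members 22 kept their sign throughout. Of all genes, 6 passed as higher and 21 as lower; a pseudocount of 0.1 gave 2 and 3, a mean of at least 5 gave 1 and 1, median scaling gave 15 higher, plain moderation 38 lower, rescaling without mitochondrial transcripts 23 and 185, the length and GC correction 21 and 35, and that correction without NC 3 61 and 54. Leaving out 1 library gave 0 to 286 higher and 3 to 316 lower, the most without NC 3. Of sterol genes 1 passed, 0 with a pseudocount of 0.1 or a mean of at least 5, 2 with the correction and no NC 3, and 0 to 5 with 1 library left out. Sterol genes below with no overlap were 2 after rescaling and 1 to 4 with 1 library left out. Fatty acid genes above with no overlap were 2 after median scaling, 3 with the correction (also in its replicate block and without NC 3) and 0 to 1 with 1 library left out; those below were 1 with the correction (also in its block) and 3 to 5 with 1 library left out. Of these settings, only the correction has its no-overlap share over all genes given above. The other counts are therefore not read as results about the members. With a library left out, no overlap also comes more easily. The fatty acid median ran from -0.32 to 0.10 with 1 library left out and was 0.13 with the correction. Rescaling lowered the median of all genes to -0.20.

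The replicate number as a block left 0 genes passing in either direction, in either fit, and 0 sterol genes; Fdft1 then had an adjusted p of 0.176. Deviations of same-numbered libraries correlated at -0.03, 0.02 and -0.01, and those of other pairs at -0.04 to 0.04. Whether same-numbered libraries share a culture or batch is not given in the labels and cannot be told from these values.

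Signs that turned were as follows. Rescaling gave Idi1 -0.041, Nsdhl -0.041, Stard4 -0.17, Elovl6 -0.16, Scd2 -0.10 and Fads1 -0.21. The correction, with or without the block, gave Hsd17b7 0.37, Sc5d 0.23, Fasn 0.20 and Scd1 0.087; without NC 3 it gave 0.22, 0.092, 0.11 and 0.0098 for these genes and -0.41 for Lss. Median scaling gave Fasn 0.027, and a pseudocount of 0.1 gave Tm7sf2 0.012. With 1 library left out, fold changes ran from -0.75 to 1.10 for Lss, -0.58 to 0.38 for Tm7sf2, -0.043 to 0.33 for Nsdhl, -0.0095 to 0.80 for Srebf1, -0.22 to 0.65 for Srebf2, -0.11 to 0.57 for Scap, -0.047 to 0.18 for Stard4, -0.34 to 0.17 for Fasn, -0.054 to 0.16 for Elovl6, -0.033 to 0.28 for Scd2 and -0.15 to 0.15 for Fads1. Where a sign or call changed, the cause was not tested. Read depth is unknown, so how far it limits low genes such as Tm7sf2 and Acss2 cannot be given.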

Other observations

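Several members are neighbours in the genome. Fdps and Pmvk, which both had tRF-Val values above all NC values, lie 352581 bases apart on chromosome 3, on opposite strands. Tm7sf2 lies on chromosome 19, as do Fads1, Fads2, Scd1 and Scd2.

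The 9210 rows with human transcript IDs, used in no comparison, summed to 41480, 46739 and 47372 in tRF-Val libraries, against 53290, 48563 and 47019 in NC libraries.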
